A study of Homo sapiens with 6 samples.

Results

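Transcripts of 41 genes of the ATF4 programme and of amino acid supply were followed in MOLP-8 cells, an established human multiple myeloma line, after CRISPR targeting of LIN28B. The genes were chosen by name, as members of the ATF4 pathway, of serine and one-carbon metabolism or of amino acid transport. All 41 were found by symbol among the 57861 genes with a usable value in every library, and 36 of them passed the filter on low values, against 15803 genes tested in all. The 3 LIN28B KO libraries came from MOLP-8 cells that carried lentiCRISPRv2 with a guide RNA to LIN28B, and the 3 control libraries from MOLP-8 cells with the same vector and a scrambled guide. Puromycin at 1 µg/mL selected both, in RPMI medium that held 10% serum. The sample titles abbreviate the first group as KD, while its condition label calls it KO, the name used here. The labels say neither whether the edited cells were a pool or a clone nor whether each library had a culture of its own. The p-values therefore rest on library-to-library spread, part or all of which may be technical. The comparison asks which of these transcripts differ when LIN28B is targeted, a protein that binds let-7 precursors and keeps these microRNAs from maturing.

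ATF4 is a bZIP transcription factor whose mRNA is translated more when the kinases of the integrated stress response phosphorylate eIF2, as the kinase GCN2, encoded by EIF2AK4, does when amino acids run short. ATF4 binds composite C/EBP-ATF elements together with C/EBP partners and raises genes that import amino acids, charge them to tRNAs and make serine, asparagine and proline. Serine feeds the folate cycle, which supplies one-carbon units for nucleotide synthesis. Plasma cells and myeloma cells secrete large amounts of protein and are known for a high demand for amino acids.

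The C/EBP-ATF element is shown first because it is the sequence feature that the ATF4 programme is known for. It was searched as TGATGNAA on both strands, its reverse complement being TTNCATCA, in RefSeq promoter windows of GRCh38.p14 that run from 250 bases before to 50 bases after a gene's start. Windows were matched for 34 of the 41 genes, and not for NUPR1, PSPH, SHMT2, ALDH1L2, PYCR1, GPT2 and SLC7A11. At least 1 window held the element in 12 of these 34 genes (35.3%), the untested ATF3 and JDP2 included. Of the tested ones 10 held it and 21 did not, beside 237 of 9103 tested genes with a window (2.60%). By window it was 14 of 57, beside 1270 of all 35116 windows (3.62%). The genes were picked by name, partly as members of the ATF4 pathway, so this excess is no independent evidence. The examples below give 11 bases on either side of the element, 5′ to 3′ on the gene's strand, with the element in capitals. They belong to asparagine synthetase (ASNS), the glutathione-degrading enzyme CHAC1, the C/EBP partner CEBPG, the neutral amino acid transporters SLC1A5 and SLC1A4, and the aspartate aminotransferase GOT1.
ASNS: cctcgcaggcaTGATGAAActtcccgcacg
CHAC1: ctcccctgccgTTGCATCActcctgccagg
CEBPG: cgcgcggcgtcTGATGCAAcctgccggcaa
SLC1A5: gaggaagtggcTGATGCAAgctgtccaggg
SLC1A4: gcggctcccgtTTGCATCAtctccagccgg
GOT1: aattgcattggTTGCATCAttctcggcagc
These stretches lie at chr7:97872458-97872487 (minus strand, element from 68 bases before the start) for ASNS, chr15:40953251-40953280 (plus) for CHAC1, chr19:33374060-33374089 (plus) for CEBPG, chr19:46784893-46784922 (minus) for SLC1A5, chr2:64989381-64989410 (plus) for SLC1A4 and chr10:99430804-99430833 (minus) for GOT1. A match describes the letters only and shows no binding.

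The targeted gene was examined first. LIN28B stood at 8.41, 8.17 and 5.84 FPKM (fragments per kilobase of transcript, scaled to library size, as deposited) in LIN28B KO libraries 1 to 3 and at 23.3, 24.3 and 25.5 FPKM in controls 1 to 3. All LIN28B KO values were far below the controls, at a mean of 30.7% of the control mean (log2 fold change -1.66, SE 0.17, limma adjusted p = 0.0207). That call was lost in 5 of the 6 fits that left out 1 library, at log2 fold changes of -1.75 to -1.63 and limma adjusted p of 0.0675 to 0.185, and held without LIN28B KO library 3 (-1.50, limma adjusted p = 0.00957). The labels do not say where the guide cuts, and a cut need not lower a transcript. One library, LIN28B KO 3, differed from all others in more than LIN28B. Of 401 olfactory receptor genes, 30.4% had a value above 0 in it, against 11.7% and 14.5% in LIN28B KO libraries 1 and 2 and 10.2% to 13.0% in the controls. The plasma cell list held 11 symbols for 10 genes, since JCHAIN and IGJ name the same gene. All 10 passed the filter, with a summed level of 11194 to 17062 FPKM in LIN28B KO and 14259 to 15885 FPKM in control libraries. IGJ gave most of that sum, at 9025 to 13920 FPKM in LIN28B KO and 10951 to 12586 FPKM in control libraries. By limma 0 of the 10 were called with 6 libraries. Without LIN28B KO library 3, on protein-coding genes, 2 were called higher, SLAMF7 and TNFRSF17, against 1.08% of all genes, and 0 lower. With 6 libraries 4 of the 10, MZB1, CD38, SDC1 and XBP1, were lower in every LIN28B KO library than in any control. That compares with 20.1% of all tested genes. In the other direction 1 of the 10, SLAMF7, was higher in every LIN28B KO library, against 7.61%. No marker of T and NK cells passed the filter, with 2 of 8 listed at 0 in every library; they summed to 3.21 to 5.23 FPKM in LIN28B KO and 1.90 to 2.14 FPKM in control libraries, and the 7 myeloid markers, of which 0 passed and 1 was listed at 0 throughout, to 0.774 to 1.76 FPKM in LIN28B KO and 0.458 to 1.51 FPKM in control libraries. The 6 stromal markers summed to 3.62, 3.81 and 14.2 FPKM in LIN28B KO libraries 1 to 3 and to 3.10 to 5.89 FPKM in controls; 2 of them passed the filter and none was at 0 throughout. The part of these features in the results was not tested. Depth is not given in the files. Estimated from the deposited bounds it was 4808210 to 5596934 fragment equivalents in LIN28B KO and 6310855 to 8368315 in control libraries.

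Among the 41 genes, the enzyme that opens serine synthesis (PHGDH), the mitochondrial serine hydroxymethyltransferase SHMT2 and the large neutral amino acid transporter SLC7A5 were lower in every LIN28B KO library than in any control, with means at 70.1%, 70.5% and 66.7% of control in that order. In all, 18 of the 36 tested genes (50%) were lower in this way, against 20.1% of all tested genes. CTH, the last enzyme of transsulfuration, and CHAC1 were the only 2 of the 36 tested genes that were higher in every LIN28B KO library, against 7.61% of all tested genes. ATF4 itself stood at 79.9% of control over all LIN28B KO libraries and at 89.9% over libraries 1 and 2, and its classical outputs lay on both sides of control. None of the 36 tested genes passed the test across all genes with 6 libraries. The 3 that passed without LIN28B KO library 3 did so on protein-coding genes with the deposited scaling. In that fit 3.02% of all genes were called lower.

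With all 6 libraries, limma's moderated test on log2(FPKM + 0.5) called 0 of the 36 genes higher and 0 lower at a Benjamini-Hochberg adjusted p under 0.05, where 0.0633% of all tested genes were called higher and 0.0316% lower. The lowest adjusted p among the 36 genes was 0.274, for PHGDH. At an unadjusted p under 0.05, 1 gene was higher (CTH) and 4 were lower (PHGDH, SLC7A5, SHMT2 and STC2), against 4.95% and 8.73% of all tested genes. The fold change was below 0 for 31 of the 36 genes (86.1%), against 66.5% of all tested genes. The LIN28B KO and control groups did not overlap for 20 of the 36 genes, of which 18 were lower in LIN28B KO, against 20.1% of all tested genes, and 2 were higher, against 7.61%. The median log2 fold change of the 36 genes was -0.26, and that of all tested genes was -0.13.

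**Figure D1:**
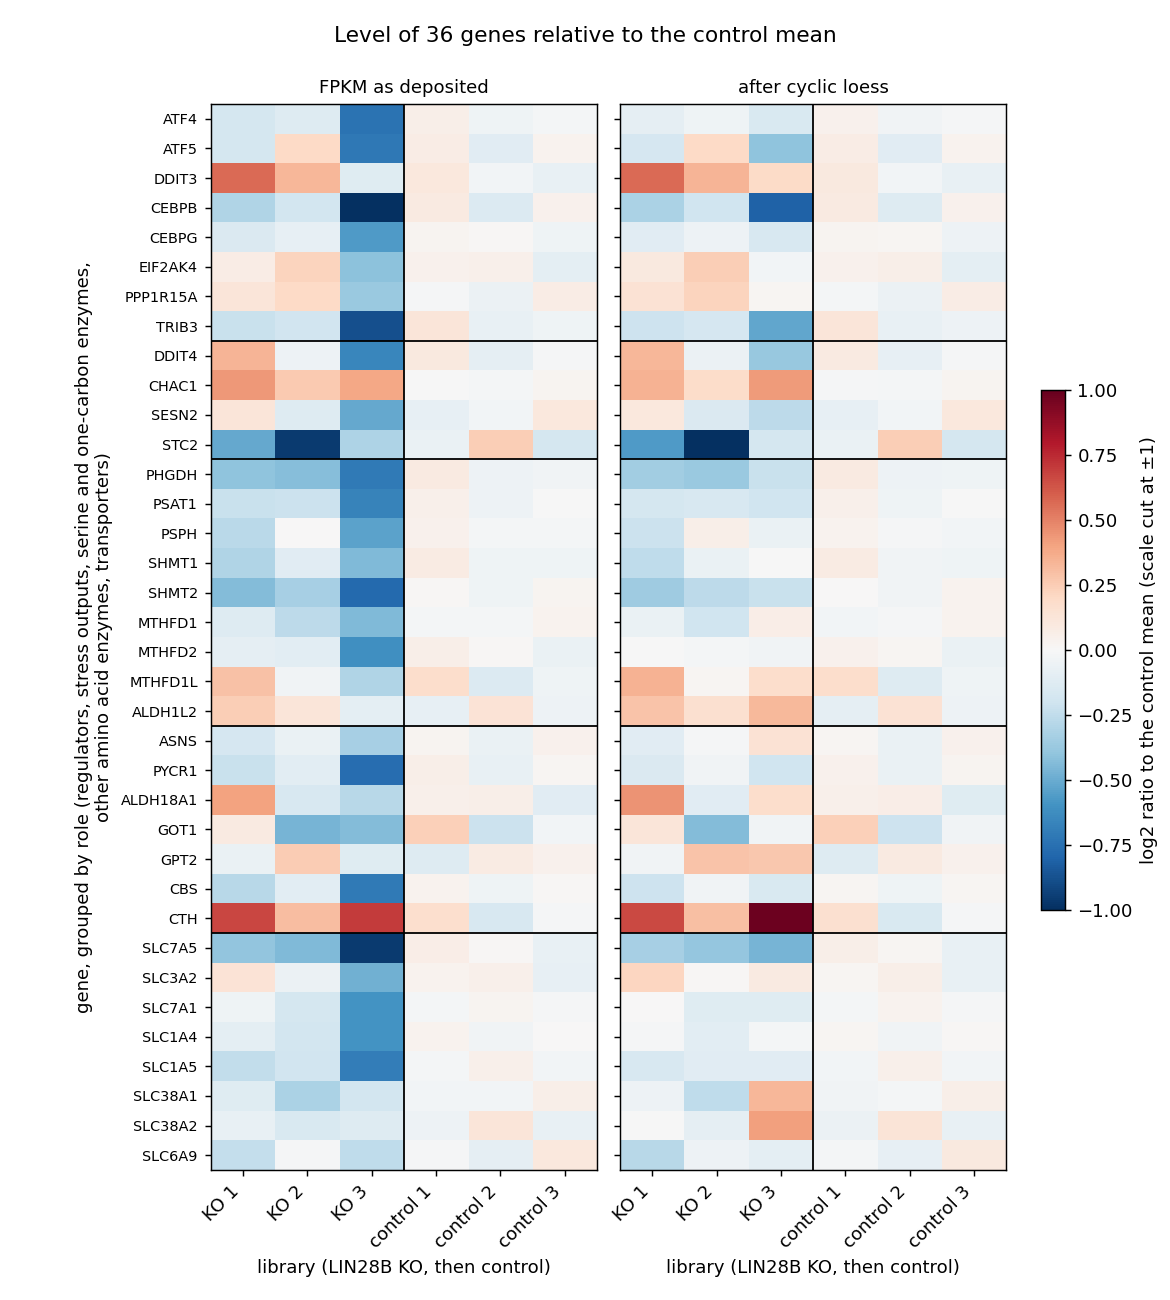
Log2 ratio of each of the 36 tested genes to its control mean in the 3 LIN28B KO and the 3 control libraries, on the log2(FPKM + 0.5) scale as deposited (left) and after cyclic loess (right); rows are genes grouped by role and colour is cut at 1 in either direction. As deposited, 34 of 36 genes lay below the control mean in LIN28B KO library 3, against 24 and 27 in libraries 1 and 2. After cyclic loess the counts were 23, 25 and 23 for LIN28B KO libraries 1 to 3. Controls 1 to 3 themselves had 12, 24 and 22 genes below that mean, as deposited and after cyclic loess alike.

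The ratio to control was compared with that of all tested protein-coding genes of the same level. Among the 13 genes with a control mean of at least 40 FPKM, the median log2 ratio to control lay at -0.18, -0.18 and -0.69 in LIN28B KO libraries 1 to 3. For 2771 tested protein-coding genes of that level it was -0.09, -0.09 and -0.57. Among the 14 genes at 10 to 40 FPKM the medians were -0.05, -0.07 and -0.42, beside -0.04, -0.05 and -0.44 for 4552 protein-coding genes. The 9 tested genes under 10 FPKM had medians of 0.12, -0.01 and -0.31, beside 0.04, 0.03 and -0.19 for 4111 protein-coding genes. No test was made of these medians.

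**Figure D2:**
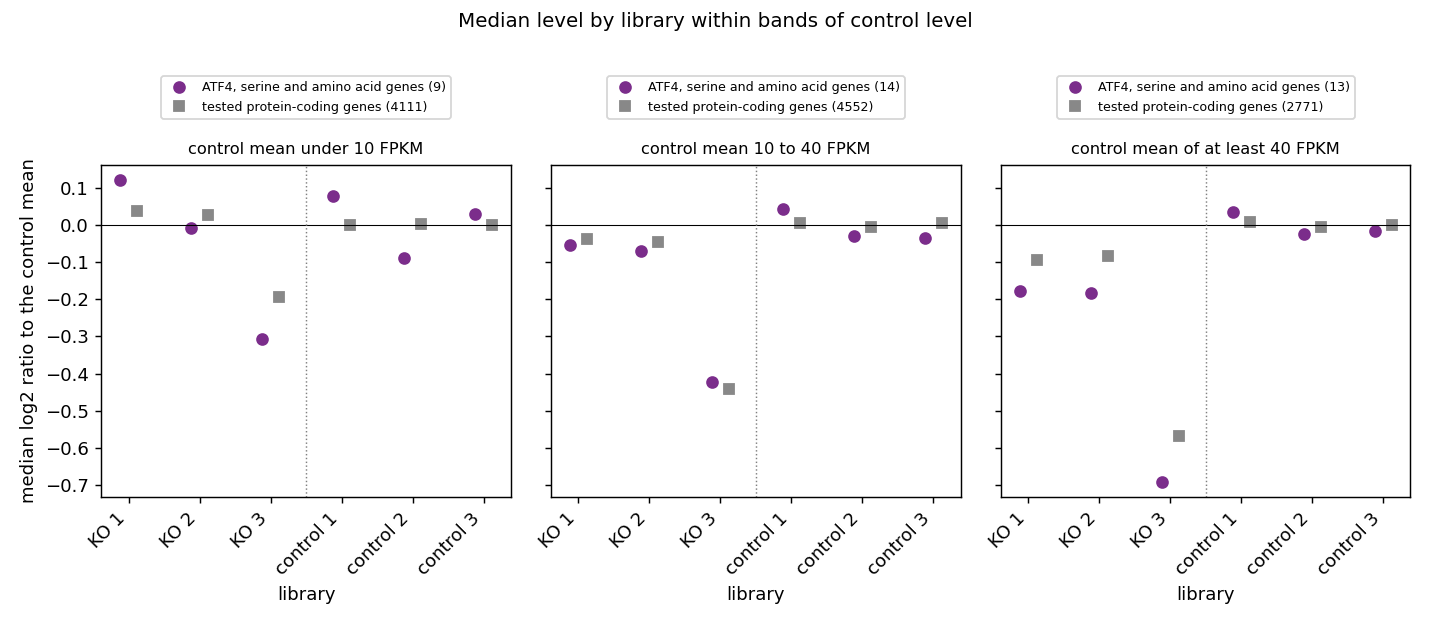
Median log2 ratio to the control mean (y axis) in each library (x axis, LIN28B KO left of control) for the ATF4, serine and amino acid genes (circles) and for all tested protein-coding genes (squares), in 3 bands of control level; numbers of genes are in brackets. In LIN28B KO library 3 both medians lie below those of the other libraries in every band, at -0.69 and -0.57 in the highest band.

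Cyclic loess, which removes a trend of the difference with level between libraries, brought the median of all tested genes to 0.00 and that of the 36 genes to -0.08. Under it 0 of the 36 genes were called, where 0.361% of all genes were called higher and 0.342% lower. The groups did not overlap for 9 genes lower in LIN28B KO, against 13.3% of all genes, and for 4 higher, against 13.7%. In all, 8 genes changed sign under this scaling, among them ASNS and the transporters SLC3A2, SLC38A1 and SLC38A2. The direction of these 8 depends on the scaling, also for SLC38A1, which was lower without overlap as deposited.

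The comparison was repeated without LIN28B KO library 3 on 11308 protein-coding genes. There 3 of the 36 genes passed and fell, PHGDH, SHMT2 and SLC7A5, and 0 rose, against 3.02% and 1.08% of all genes in that fit. At an unadjusted p under 0.05, 12 genes were lower and 2 higher, against 15.4% and 7.43%. The same 5 libraries over all 15336 genes that passed the filter gave 0 calls among the 36, where 0.267% were called lower and 0.15% higher, with limma adjusted p of 0.0741 for PHGDH, 0.0625 for SHMT2 and 0.0681 for SLC7A5. Cyclic loess, run on the 5 libraries and protein-coding genes, also gave 0 of 36, where 1.17% of genes were called lower and 1.08% higher. The log2 fold changes of the 3 genes were the same in both fits without cyclic loess, -0.41 for PHGDH, -0.38 for SHMT2 and -0.42 for SLC7A5. The SE and the p before adjustment differed between these fits, as did the adjusted p. For PHGDH the SE was 0.070 over all genes and 0.075 on protein-coding genes. With cyclic loess the log2 fold changes were -0.35, -0.30 and -0.36.

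**Figure D3:**
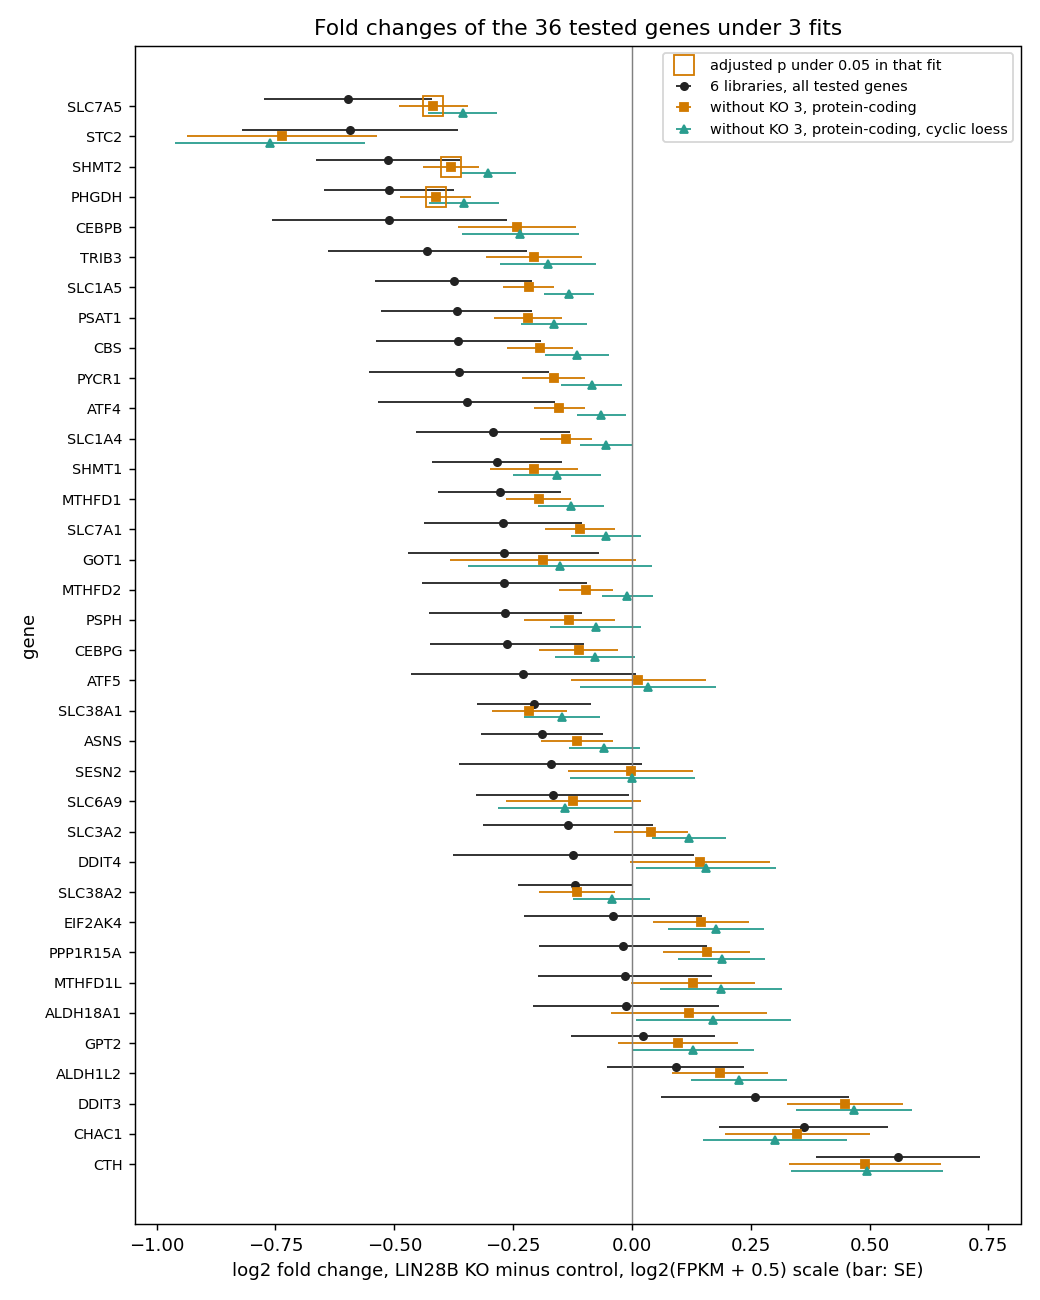
Fold change, LIN28B KO over control (x axis, log2(FPKM + 0.5) scale, bars are SE) for the 36 tested genes (y axis) in the fit of 6 libraries (circles), in that without LIN28B KO library 3 on protein-coding genes (squares) and in that second fit after cyclic loess (triangles). Open squares mark PHGDH, SHMT2 and SLC7A5, the genes with an adjusted p under 0.05 in the second fit; 20 of the 36 genes had groups that did not overlap with 6 libraries.

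Serine and one-carbon enzymes held 2 of the 3 genes that passed without LIN28B KO library 3. All 9 were tested. As deposited, 6 were lower in every LIN28B KO library than in any control, against 20.1% of all tested genes. None was higher in every one, against 7.61%. After cyclic loess over 6 libraries PHGDH, PSAT1 and SHMT2 stayed lower without overlap, against 13.3% of all genes. SHMT1, MTHFD1 and MTHFD2 overlapped between groups there. The median log2 fold change was -0.28 with 6 libraries and -0.13 in the 5-library fit with cyclic loess. PHGDH (chromosome 1, 120202421 to 120286838, GRCh37), which oxidises 3-phosphoglycerate and commits glycolytic carbon to serine, had 33.6, 32.9 and 27.0 FPKM in LIN28B KO libraries 1 to 3 and 47.4, 42.8 and 43.3 FPKM in controls 1 to 3. Every LIN28B KO value lay below the lowest control, and the deposited bounds of LIN28B KO library 1, 30.8 to 36.3 FPKM, did not reach those of control 2, 39.7 to 45.8 FPKM. The means were 31.2 ± 3.61 FPKM in LIN28B KO and 44.5 ± 2.52 FPKM in control libraries (SD, n = 3 each), and the limma log2 fold change stood at -0.51 (SE 0.14, adjusted p = 0.274). Without LIN28B KO library 3 it was -0.41 on protein-coding genes (SE 0.07, limma adjusted p = 0.0382), and with cyclic loess on these -0.35 (SE 0.07, adjusted p = 0.0660).

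SHMT2 (chromosome 12, 57623110 to 57628718), which turns serine into glycine and a folate-bound one-carbon unit inside mitochondria, had 88.2, 94.6 and 69.1 FPKM in LIN28B KO and 120, 116 and 121 FPKM in control libraries. The groups did not overlap, and library 3 was lowest. By limma, the log2 fold change stood at -0.51 (SE 0.15, adjusted p = 0.297) with 6 libraries and -0.38 (SE 0.06, adjusted p = 0.0309) without library 3, on protein-coding genes, where cyclic loess gave -0.30 (adjusted p = 0.0533). With cyclic loess it was -0.28 over 6 libraries, and LIN28B KO libraries 1 to 3 lay at -0.35, -0.26 and -0.23 against the control mean, all below the controls. Its cytosolic counterpart SHMT1 had 20.5, 23.5 and 18.6 FPKM in LIN28B KO and 26.9, 24.7 and 24.7 FPKM in control libraries, without overlap (log2 fold change -0.28, SE 0.14, limma adjusted p = 0.390). The SHMT2 gene model overlaps the end of NDUFA4L2, at 4.84 FPKM in LIN28B KO and 5.63 FPKM in control libraries.

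The next 2 enzymes of serine synthesis passed in none of the limma fits. PSAT1, the aminotransferase that follows PHGDH, had 30.2, 30.5 and 22.1 FPKM in LIN28B KO and 36.8, 34.1 and 35.4 FPKM in control libraries (log2 fold change -0.37, SE 0.16, limma adjusted p = 0.367). PSPH, the phosphatase of the last step, had 29.1, 35.2 and 24.1 FPKM in LIN28B KO and 36.2, 34.7 and 34.6 FPKM in control libraries, so that LIN28B KO library 2 lay among the controls. The pseudogene PSPHP1 was listed at 9.85 to 20.1 FPKM in LIN28B KO and 17.5 to 26.9 FPKM in control libraries, and its reads cannot be told apart from those of PSPH with certainty.

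Among folate enzymes MTHFD1, the cytosolic trifunctional enzyme, had 52.3, 47.8 and 42.1 FPKM in LIN28B KO and 56.5, 56.8 and 59.0 FPKM in control libraries (log2 fold change -0.28, SE 0.13, limma adjusted p = 0.383). MTHFD2, its mitochondrial counterpart and one of the most abundant of these transcripts, averaged 139 ± 27.1 FPKM in LIN28B KO and 166 ± 7.28 FPKM in control libraries (SD, n = 3 each), with 156 and 154 FPKM in LIN28B KO libraries 1 and 2 just below the lowest control at 158 FPKM. MTHFD1L, the mitochondrial formate-releasing enzyme, averaged 36.9 ± 7.80 FPKM in LIN28B KO and 36.9 ± 4.24 FPKM in control libraries. ALDH1L2, which oxidises mitochondrial formyl-folate to carbon dioxide, averaged 19.1 ± 2.30 FPKM in LIN28B KO and 17.8 ± 1.53 FPKM in control libraries (SD, n = 3 each). The groups overlapped for both.

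**Figure D4:**
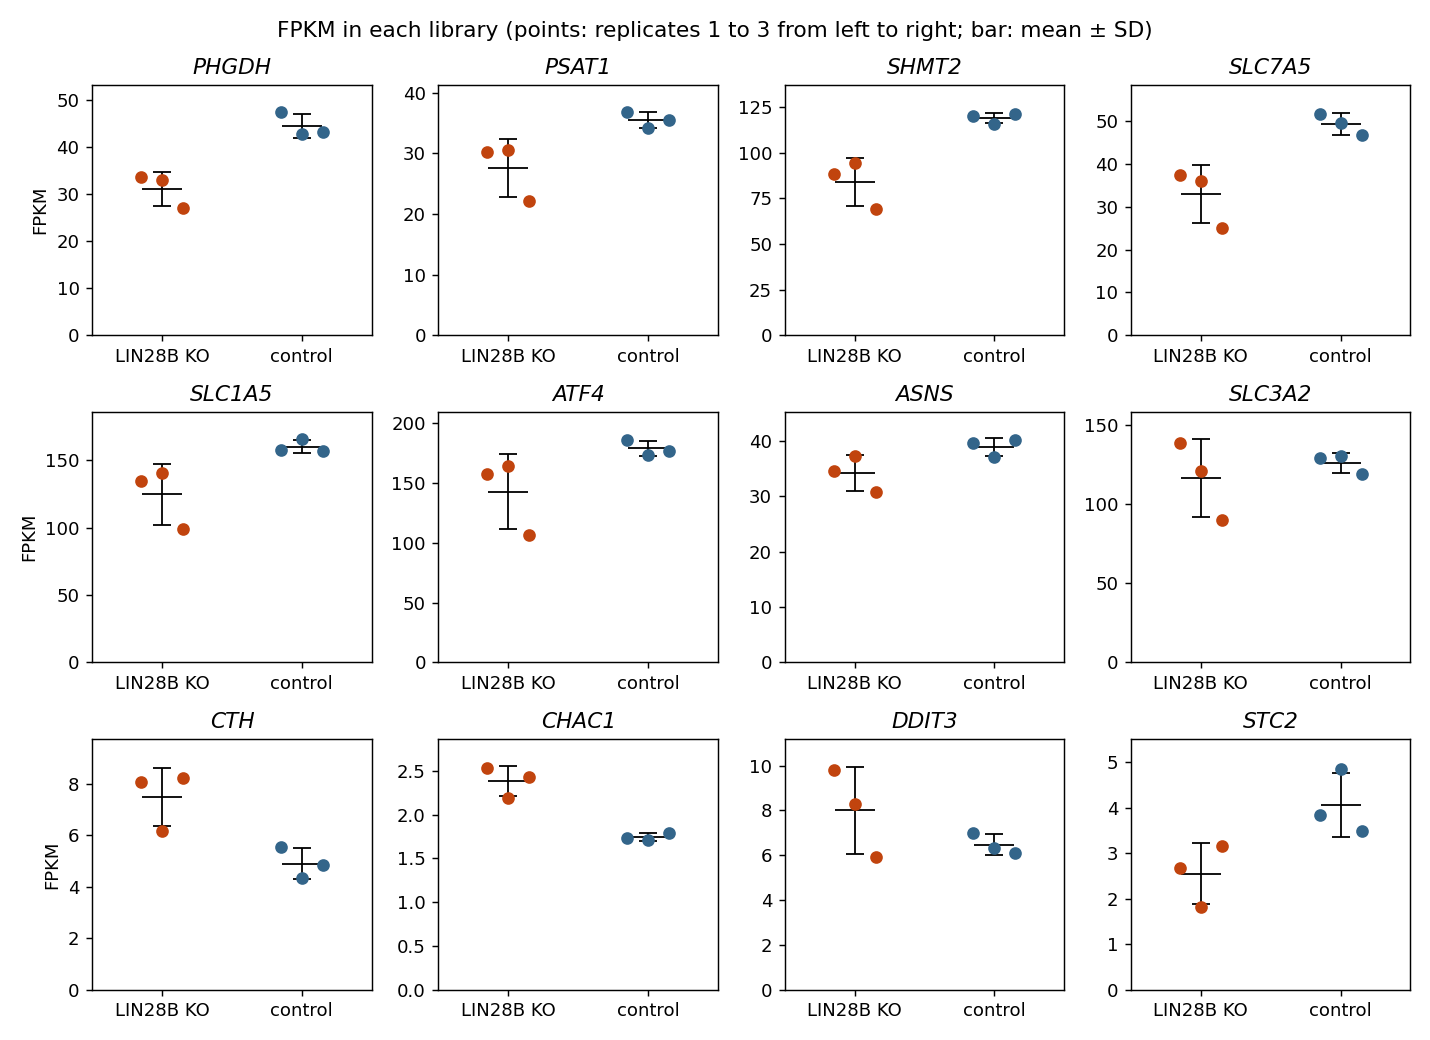
FPKM (y axis, from 0) of 12 genes in LIN28B KO (left) and control (right) libraries, replicates 1 to 3 from left to right, with the mean and SD. For PHGDH, PSAT1, SHMT2, SLC7A5, SLC1A5, ATF4 and STC2 every LIN28B KO point lies below every control point, for CTH and CHAC1 every one lies above, and for ASNS, SLC3A2 and DDIT3 the groups overlap.

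Amino acid transporters included the third of the genes that passed without LIN28B KO library 3. SLC7A5 (chromosome 16, 87863629 to 87903094), the catalytic chain of the LAT1 exchanger that imports leucine and other large neutral amino acids, had 37.4, 36.1 and 25.1 FPKM in LIN28B KO and 51.6, 49.6 and 46.7 FPKM in control libraries. All LIN28B KO values were lower than all controls, and library 3 was the lowest. By limma, the log2 fold change stood at -0.60 (SE 0.18, adjusted p = 0.297) with 6 libraries and -0.42 (SE 0.07, limma adjusted p = 0.0355) without library 3, on protein-coding genes, where cyclic loess gave -0.36 (adjusted p = 0.0609). With cyclic loess over 6 libraries and protein-coding genes, an alternative added after the values were seen, SLC7A5 was the 1 gene of the 36 that fell (log2 fold change -0.39, adjusted p = 0.0406), against 1.24% of genes called lower and 1.15% higher there. A pair of transcribed copies, SLC7A5P1 and SLC7A5P2, stood at 1.65 to 3.47 FPKM over all 6 libraries. The gene model RP4-536B24.2 lies within the SLC7A5 locus, at 6.13 FPKM in LIN28B KO and 8.91 FPKM in control libraries on average, so shared reads are uncertain there too.

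SLC3A2, the heavy chain that carries SLC7A5 and other light chains to the membrane, overlapped between groups. It had 139, 121 and 90.3 FPKM in LIN28B KO and 129, 131 and 119 FPKM in control libraries, and LIN28B KO library 1 held the highest value of all 6. Per kilobase, SLC7A5 transcripts amounted to 0.269, 0.298 and 0.278 of SLC3A2 transcripts in LIN28B KO and to 0.399, 0.379 and 0.392 in control libraries. LIN28B KO library 3, which stands apart in level, lay between the other LIN28B KO libraries in this ratio. The exact permutation test, two-sided, gave p = 0.1, the smallest that 3 against 3 allows; this and the next 4 ratios were chosen after the values were seen.

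Ratios within other pairs were set beside it. SHMT2 over SHMT1 was 4.30, 4.02 and 3.72 in LIN28B KO and 4.46, 4.69 and 4.92 in control libraries, which did not overlap (exact permutation p = 0.1). MTHFD2 over MTHFD1 averaged 2.92 ± 0.333 in LIN28B KO and 2.89 ± 0.191 in control libraries (SD, n = 3 each), which overlapped (exact permutation p = 0.9). CTH over CBS, successive enzymes of transsulfuration, was 0.0854, 0.0581 and 0.118 in LIN28B KO and 0.0472, 0.0389 and 0.0419 in control libraries (exact permutation p = 0.1). PHGDH over ASNS, which do not work as partners and are not plotted, was 0.970, 0.884 and 0.879 in LIN28B KO and 1.20, 1.15 and 1.08 in control libraries (exact permutation p = 0.1). The p-values of these 5 ratios are not adjusted, and none can go below 0.1.

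**Figure D5:**
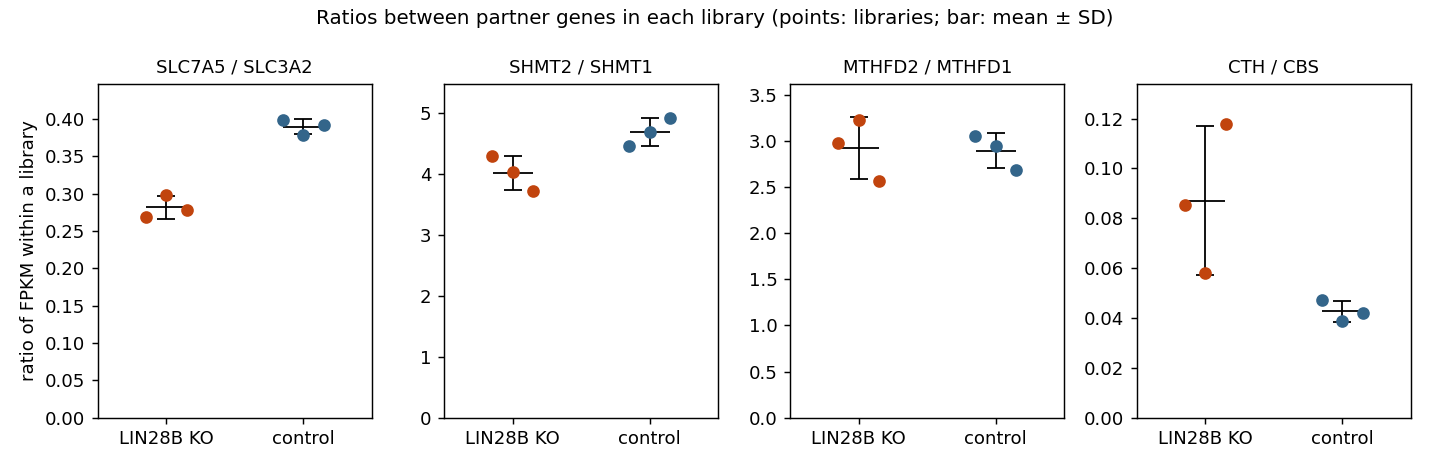
Ratio of FPKM (y axis, from 0) within each library for 4 pairs of partner genes in LIN28B KO (left) and control (right) libraries, with the mean and SD. SLC7A5 over SLC3A2 sits between 0.269 and 0.298 in LIN28B KO and between 0.379 and 0.399 in control libraries, and MTHFD2 over MTHFD1 overlaps.

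The other transporters differed by smaller amounts. Of the 8 tested, SLC7A5 included, 5 had groups that did not overlap as deposited, all lower in LIN28B KO, against 20.1% of all tested genes. After cyclic loess over 6 libraries SLC7A5 and SLC1A5 stayed lower without overlap, against 13.3% of all genes. SLC1A4, SLC7A1 and SLC38A1 overlapped there, and the log2 fold change of SLC38A1 was 0.010. SLC1A5, the glutamine and neutral amino acid exchanger ASCT2, had 135, 140 and 98.9 FPKM in LIN28B KO and 158, 166 and 157 FPKM in control libraries (log2 fold change -0.38, SE 0.16, limma adjusted p = 0.371). Its relative SLC1A4, which carries alanine, serine and cysteine, averaged 129 ± 22.9 FPKM in LIN28B KO and 156 ± 3.84 FPKM in control libraries (SD, n = 3 each), and the cationic transporter SLC7A1 averaged 30.0 ± 5.78 FPKM in LIN28B KO and 35.9 ± 0.653 FPKM in control libraries. SLC38A1, a sodium-coupled glutamine transporter, averaged 54.3 ± 3.75 FPKM in LIN28B KO and 62.6 ± 2.12 FPKM in control libraries, and its level in library 3, 55.0 FPKM, lay between those of libraries 1 and 2. SLC38A2, which amino acid shortage is known to raise, averaged 68.0 ± 1.95 FPKM in LIN28B KO and 74.1 ± 5.69 FPKM in control libraries and overlapped, as did the glycine transporter SLC6A9 at 3.35 ± 0.374 FPKM in LIN28B KO and 3.82 ± 0.289 FPKM in control libraries. SLC7A11, the cystine chain of system xc-, was under the filter, with 0.805, 0.821 and 1.48 FPKM in LIN28B KO and 0.955, 1.04 and 0.972 FPKM in control libraries.

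Of the 7 other amino acid enzymes 0 passed in any limma fit described here. CTH (chromosome 1, 70876901 to 70905534), which makes cysteine from cystathionine, had 8.05, 6.17 and 8.23 FPKM in LIN28B KO and 5.53, 4.32 and 4.84 FPKM in control libraries. Every LIN28B KO value exceeded every control, and library 3 was the highest although most genes were low there. By limma, the log2 fold change stood at 0.56 (SE 0.17, adjusted p = 0.298) with 6 libraries, 0.65 with cyclic loess, and 0.49 (SE 0.16, adjusted p = 0.136) without library 3, so CTH passed in none of these limma fits. The deposited bounds of LIN28B KO library 2, 4.42 to 7.92 FPKM, took in all 3 control values except that of control 2.

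CBS, which makes the cystathionine that CTH uses, had 94.2, 106 and 69.9 FPKM in LIN28B KO and 117, 111 and 115 FPKM in control libraries (log2 fold change -0.37, SE 0.17, limma adjusted p = 0.388). PYCR1, the last enzyme of proline synthesis, averaged 96.0 ± 21.8 FPKM in LIN28B KO and 121 ± 5.66 FPKM in control libraries (SD, n = 3 each) without overlap, and another gene model at its locus, RP11-498C9.13, averaged 81.1 FPKM in LIN28B KO and 99.1 FPKM in control libraries, so reads may be shared. ASNS, which makes asparagine, had 34.6, 37.3 and 30.8 FPKM in LIN28B KO and 39.6, 37.1 and 40.2 FPKM in control libraries, and LIN28B KO library 2 lay above control 2. ALDH18A1, the first enzyme of proline synthesis, averaged 26.9 ± 7.26 FPKM in LIN28B KO and 26.6 ± 1.85 FPKM in control libraries, GOT1 13.8 ± 3.28 FPKM in LIN28B KO and 16.6 ± 2.74 FPKM in control libraries, and the alanine aminotransferase GPT2 14.0 ± 2.13 FPKM in LIN28B KO and 13.7 ± 1.09 FPKM in control libraries. These last 3 overlapped.

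Of the 8 tested regulators of the pathway, 4 had groups that did not overlap and were lower in LIN28B KO, beside 20.1% of all tested genes, at 70.2% of control for CEBPB, 74.8% for TRIB3, 79.9% for ATF4 and 83.7% for CEBPG. None of them passed the test, and the median log2 fold change of the 8 was -0.25 with 6 libraries and -0.02 without LIN28B KO library 3 on protein-coding genes with cyclic loess. ATF4 (chromosome 22, 39915700 to 39918691) was the most abundant of the 41 transcripts, with 158, 164 and 107 FPKM in LIN28B KO and 187, 174 and 177 FPKM in control libraries. The groups did not overlap, and library 3 lay far below the other pair. By limma, the log2 fold change stood at -0.35 (SE 0.19, limma adjusted p = 0.415) with 6 libraries and -0.06 (SE 0.05, adjusted p = 0.521) without library 3 and with cyclic loess, on protein-coding genes. Since ATF4 is controlled mainly in translation, its mRNA level is not a measure of the protein. ATF5, a related factor, averaged 6.87 ± 2.25 FPKM in LIN28B KO and 7.87 ± 0.586 FPKM in control libraries (SD, n = 3 each) and overlapped.

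DDIT3, the pro-apoptotic factor CHOP and a classical ATF4 target, had 9.80, 8.28 and 5.91 FPKM in LIN28B KO and 6.99, 6.33 and 6.11 FPKM in control libraries. Libraries 1 and 2 lay above all controls and library 3 below them. By limma, the log2 fold change stood at 0.26 (SE 0.20, adjusted p = 0.532) with 6 libraries and 0.45 (SE 0.12, limma adjusted p = 0.0943) without library 3, on protein-coding genes. Its locus overlaps that of MARS, a methionyl-tRNA synthetase at 280.4 FPKM in LIN28B KO and 327 FPKM in control libraries on average. The gene model MIR616 lies within the DDIT3 locus, at 0 FPKM in LIN28B KO and 57.8 FPKM in control libraries on average. Part of the reads of DDIT3 is therefore uncertain. TRIB3, a pseudokinase that ATF4 induces and that feeds back on it, had 10.3, 10.6 and 6.36 FPKM in LIN28B KO and 13.2, 11.5 and 11.7 FPKM in control libraries (log2 fold change -0.43, SE 0.21, limma adjusted p = 0.394).

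The C/EBP partners were both lower in every LIN28B KO library. CEBPB had 5.0, 5.48 and 2.77 FPKM in LIN28B KO and 6.73, 5.67 and 6.48 FPKM in control libraries (log2 fold change -0.51, SE 0.25, limma adjusted p = 0.392), and library 3 lay well under the other pair. CEBPG averaged 13.5 ± 2.41 FPKM in LIN28B KO and 16.1 ± 0.448 FPKM in control libraries (SD, n = 3 each). The kinase gene EIF2AK4 averaged 11.98 ± 2.69 FPKM in LIN28B KO and 12.1 ± 0.716 FPKM in control libraries, and PPP1R15A, the eIF2 phosphatase subunit GADD34, 12.7 ± 2.63 FPKM in LIN28B KO and 12.7 ± 0.628 FPKM in control libraries. For both, libraries 1 and 2 lay above all controls and library 3 below all, so the direction depended on that library. ATF3, the bZIP factor JDP2 and the stress factor NUPR1 were under the filter: ATF3 ranged from 0.426 to 0.656 FPKM in LIN28B KO and from 0.529 to 1.38 FPKM in control libraries, JDP2 from 0.0432 to 0.559 FPKM in LIN28B KO and 0.105 to 0.151 FPKM in control libraries, and NUPR1 from 0.0702 to 0.208 FPKM in LIN28B KO while it was listed at 0 in 2 of the controls.

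Stress outputs showed both directions. CHAC1 (chromosome 15, 41245160 to 41248710) had 2.53, 2.19 and 2.44 FPKM in LIN28B KO and 1.73, 1.71 and 1.79 FPKM in control libraries. The groups were apart, but the level was low: the deposited bounds of LIN28B KO library 2 ran from 1.47 to 2.92 FPKM and covered the controls. By limma, the log2 fold change stood at 0.36 (SE 0.18, limma adjusted p = 0.396), and 0.30 (SE 0.15) without library 3 and with cyclic loess. STC2, the secreted glycoprotein stanniocalcin 2, had 2.68, 1.83 and 3.16 FPKM in LIN28B KO and 3.83, 4.86 and 3.50 FPKM in control libraries (log2 fold change -0.59, SE 0.23, limma adjusted p = 0.351). Here library 3 lay nearest to the controls, and without it the log2 fold change came to -0.74 (SE 0.20, limma adjusted p = 0.0942).

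DDIT4 and SESN2, inhibitors of mTORC1 signalling, overlapped between groups, at 6.02 ± 2.15 FPKM in LIN28B KO and 6.33 ± 0.444 FPKM in control libraries for DDIT4 and at 5.02 ± 1.18 FPKM in LIN28B KO and 5.62 ± 0.416 FPKM in control libraries for SESN2 (SD, n = 3 each). VLDLR, a lipoprotein receptor that ATF4 can induce, was under the filter, at 0.0792 to 0.228 FPKM in LIN28B KO and 0.10 to 0.145 FPKM in control libraries.

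By control level the 41 genes ran from ATF4 at 179 ± 6.59 FPKM down to NUPR1 at 0.0503 ± 0.0871 FPKM (SD, n = 3 each). ATF4 was followed by MTHFD2 at 166 ± 7.28, SLC1A5 at 160 ± 4.79 and SLC1A4 at 156 ± 3.84 FPKM, and the control ranges of MTHFD2, SLC1A5 and SLC1A4 overlapped from one to the next, while that of ATF4 lay above them. SLC3A2 (126 ± 6.27), PYCR1 (121 ± 5.66), SHMT2 (119 ± 2.96) and CBS (114 ± 3.17) came next, each again overlapping its neighbour. Gene models of ATF5, DDIT4, MTHFD1, MTHFD2, ASNS, SLC1A5, SLC6A9 and ALDH1L2 also overlap those of other genes, and use of strand in counting is not given, so shared reads make these levels uncertain. Fewer cells with a programme and less RNA per cell cannot be told apart in these bulk libraries.

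The fold changes were set out by presence of the promoter element, with no test. The 10 tested genes with the element in a window had a median log2 fold change of -0.23, from -0.38 for SLC1A5 to 0.36 for CHAC1, and the 21 tested genes with a window that lacked it had -0.27, from -0.60 for SLC7A5 to 0.56 for CTH. With cyclic loess and without LIN28B KO library 3 the medians were -0.06 and -0.06.

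Sites for let-7, the microRNAs that LIN28B holds back, were looked for in the longest 3′ UTR of each gene in GENCODE 29. Mature let-7a from RefSeq is printed with its seed, bases 2 to 8, in capitals, and the stretches of SLC1A4, MTHFD1 and MTHFD2 with the 7-letter seed match CTACCTC in capitals.
let-7a-5p: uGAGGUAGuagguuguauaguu
SLC1A4: tcacctgcctcttacCTACCTCa
MTHFD1: gagcactgttggtacCTACCTCg
MTHFD2: aacaattgagttgacCTACCTCc
A match was found in 5 of the 36 tested genes (13.9%), namely SLC1A4, MTHFD1, MTHFD2, ALDH1L2 and EIF2AK4, and in 1242 of 11313 tested genes with a UTR (10.98%). PHGDH, SHMT2 and SLC7A5 held none in the UTRs searched. The 5 genes had a median log2 fold change of -0.27 and the other tested ones -0.26, with 6 libraries. The median 3′ UTR was 879.5 bases long in the 36 genes and 1369 bases in tested genes.

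Other genes of the same pathways were taken from lists. Their medians stand beside -0.13 for all tested genes with 6 libraries. Of 26 tested genes of the folate and methionine cycle (median log2 fold change -0.23) 0 passed with 6 libraries. Groups did not overlap for 15 of the 26, of which 14 were lower in LIN28B KO, beside 20.1% of all tested genes, and 1 higher, beside 7.61%. In the lists described next, 3 of 18 further amino acid transporters were lower without overlap and 4 higher. Of 37 further ATF4 targets 11 were lower and 5 higher. For the eIF2 machinery it was 4 of 16 lower and 0 higher, and for the last list 9 of 18 and 0. GGH, which trims folate polyglutamates, averaged 115 ± 18.2 FPKM in LIN28B KO and 161 ± 15.8 FPKM in control libraries (SD, n = 3 each).

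Of 18 tested further amino acid transporters (median -0.07), 0 passed with 6 libraries, and 1 rose and 1 fell without LIN28B KO library 3, on protein-coding genes, the fit meant by "without library 3" from here on, where 1.08% of all genes were called higher and 3.02% lower. SLC43A2, the LAT4 transporter of large neutral amino acids, which overlaps SLC7A5 in what it carries, had 8.55, 10.1 and 7.78 FPKM in LIN28B KO and 4.99, 4.23 and 4.40 FPKM in control libraries. All LIN28B KO libraries, library 3 included, were higher than the controls, at log2 fold change 0.96 without library 3 (SE 0.13, limma adjusted p = 0.0266) and 0.97 with cyclic loess (adjusted p = 0.0274). SLC43A3 of the same family, known to carry purine nucleobases, had 107, 114 and 81.0 FPKM in LIN28B KO and 143, 147 and 139 FPKM in control libraries, at log2 fold change -0.37 (SE 0.06, limma adjusted p = 0.0297), which missed the threshold with cyclic loess (adjusted p = 0.0533). SLC7A7, the y+LAT1 light chain, averaged 6.54 ± 0.219 FPKM in LIN28B KO and 4.73 ± 0.554 FPKM in control libraries (SD, n = 3 each).

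Of 37 tested further reported ATF4 targets (median -0.11) 0 passed with 6 libraries, and 2 of 35 rose without library 3, against 1.08% of all genes. The target with the smallest p with 6 libraries was NARS2, the mitochondrial asparaginyl-tRNA synthetase, with 10.2, 8.91 and 9.03 FPKM in LIN28B KO and 13.4, 13.2 and 13.8 FPKM in control libraries. It was below control in all LIN28B KO libraries but did not pass (log2 fold change -0.50, SE 0.13, limma adjusted p = 0.264, and 0.0529 without library 3). KLHL24 averaged 20.1 ± 1.96 FPKM in LIN28B KO and 14.7 ± 1.35 FPKM in control libraries (SD, n = 3 each) and did not pass either. The 2 that rose were HMOX1, heme oxygenase, with 8.92, 10.3 and 7.33 FPKM in LIN28B KO and 5.49, 6.10 and 6.26 FPKM in control libraries (log2 fold change 0.65, SE 0.12, limma adjusted p = 0.0386), and SQSTM1, the autophagy receptor p62, with 141, 139 and 89.5 FPKM in LIN28B KO and 109, 115 and 108 FPKM in control libraries (log2 fold change 0.34, SE 0.06, limma adjusted p = 0.0320). Both are also targets of the antioxidant factor NRF2. SQSTM1 was below all controls in library 3, and with 6 libraries its log2 fold change was 0.13. Among the 16 genes of the eIF2 machinery (median -0.18) 0 passed in either fit, with EIF2S2, the beta subunit of eIF2, at 29.2 ± 5.53 FPKM in LIN28B KO and 36.4 ± 1.30 FPKM in control libraries (SD, n = 3 each). The other 2 of that list by smallest p were the GCN2 activator GCN1L1, at 119.9 ± 21.8 FPKM in LIN28B KO and 150.3 ± 15.4 FPKM in control libraries, and the eIF2 phosphatase subunit PPP1R15B, at 29.6 ± 3.97 FPKM in LIN28B KO and 35.6 ± 1.18 FPKM in control libraries (SD, n = 3 each). Of 18 other enzymes of glutamate, proline, aspartate and branched-chain amino acids (median -0.30) 0 passed with 6 libraries and 1 fell without library 3, against 3.02% of all genes, the mitochondrial arginase ARG2, with 2.54, 1.99 and 1.00 FPKM in LIN28B KO and 3.87, 4.73 and 5.61 FPKM in control libraries (log2 fold change -0.91, SE 0.19, limma adjusted p = 0.0476, and 0.0577 with cyclic loess). GLUL, glutamine synthetase, averaged 12.5 ± 3.07 FPKM in LIN28B KO and 20.4 ± 1.73 FPKM in control libraries and missed the threshold in both fits and with cyclic loess, as did the asparaginase ASRGL1 at 12.7 ± 3.09 FPKM in LIN28B KO and 19.4 ± 0.444 FPKM in control libraries.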

How the data were processed

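RNA from 3 LIN28B KO and 3 scrambled control samples of MOLP-8 was sequenced. The tools named are cutadapt, TopHat2 and HTSeq, with build GRCh37, per the submitters' processing notes; roles and versions: not given in the sources used here. The tables hold FPKM with a lower and an upper bound, per the file headers, as the authors deposited them, and no depth. Fragment equivalents, a stand-in for depth, square the ratio of 2 FPKM to the gap between FPKM and upper bound and sum over genes; they and the bounds cover counting error only. Entries of the same gene were summed, and 25 genes with a failed estimate were left out. From these, log2(FPKM + 0.5) was fitted in limma 3.58.1 under R 4.3.3, allowing for a variance trend. Genes needed at least 1 FPKM in 3 or more libraries. Adjustment by Benjamini-Hochberg ran over all genes tested, with a threshold of 0.05. Fold changes on this scale understate those of low genes. The 5-library fit left out LIN28B KO library 3 and kept genes that GENCODE 29 lists as protein-coding. The fitting script was tested on simulated data. These held no shift with level like that of LIN28B KO library 3, so the test does not cover it. Every gene is named by role, the 12 with the smallest p library by library, and up to 3 per further list by smallest p; SQSTM1, the ratios and all others given library by library were chosen after their values were seen. The genes and lists were themselves chosen with earlier results of these data known. Promoter windows and let-7a are RefSeq's, GRCh38.p14. Other scalings, filters, pseudocounts, a replicate block and leaving out each library were tried. Some results on single genes of the folate and methionine list, its 5-library calls included, are not reported here.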

Additional observations from a re-analysis of the deposited data

How the results depend on the processing

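With all 6 libraries 10 genes were called higher and 5 lower, and 0 of the 36 described. Without a filter on level the counts over all genes were 5 higher and 1 lower, with at least 1 FPKM required in all libraries 3 and 1, and with cyclic loess 57 and 54. Quantile normalization called 13 lower. Leaving out 1 library at a time gave 1 to 23 higher and 0 to 41 lower, the most without LIN28B KO library 3. Without that library and with cyclic loess there were 36 and 36, on protein-coding genes 122 and 341, and on these with cyclic loess 122 and 132. Protein-coding genes of 6 libraries, an alternative added after seeing the data, gave 18 lower, and with cyclic loess 132 higher and 142 lower. Of the 36 genes, 3 were called lower on protein-coding genes without LIN28B KO library 3, and 1 (SLC7A5) on protein-coding genes of 6 libraries with cyclic loess. Whether the replicate numbers pair the samples is not known. Deviations of same-numbered libraries correlated at -0.02, 0.04 and -0.03, and not every library correlated best with its own number. With 3 libraries per group such correlations cannot exclude pairing. The replicate block gave 2 genes lower and 0 of the 36. LIN28B kept its log2 fold change of -1.66 but lost its call without a filter (limma adjusted p = 0.142) and under the replicate block (limma adjusted p = 0.0604); leaving out 1 library gave -1.75 to -1.50, with limma adjusted p up to 0.185. Of the 36 genes, 24 kept their sign in all 19 alternatives, and the 12 others, none of them called, changed it at least once. Quantile normalization gave 0.028 for EIF2AK4, 0.063 for PPP1R15A, 0.14 for MTHFD1L, 0.11 for ALDH18A1, 0.056 for SLC3A2 and 0.050 for SLC38A2 (log2 fold change, here and below). Cyclic loess gave 0.10 for EIF2AK4, 0.13 for PPP1R15A, 0.18 for MTHFD1L, 0.0075 for ASNS, 0.17 for ALDH18A1, 0.11 for SLC3A2, 0.010 for SLC38A1 and 0.10 for SLC38A2. On protein-coding genes it gave 0.11 for EIF2AK4, 0.14 for PPP1R15A, 0.18 for MTHFD1L, 0.010 for ASNS, 0.17 for ALDH18A1, 0.11 for SLC3A2, 0.015 for SLC38A1 and 0.11 for SLC38A2. Leaving out 1 library gave -0.44 to 0.014 for ATF5, -0.17 to 0.15 for EIF2AK4, -0.13 to 0.16 for PPP1R15A, -0.35 to 0.14 for DDIT4, -0.17 to 0.13 for MTHFD1L, -0.22 to 0.12 for ALDH18A1, -0.093 to 0.096 for GPT2 and -0.27 to 0.039 for SLC3A2. Without LIN28B KO library 3 and with cyclic loess the values were 0.018 for ATF5, 0.17 for EIF2AK4, 0.18 for PPP1R15A, 0.14 for DDIT4, 0.18 for MTHFD1L, 0.17 for ALDH18A1 and 0.12 for SLC3A2. On protein-coding genes without that library they were 0.014 for ATF5, 0.15 for EIF2AK4, 0.16 for PPP1R15A, 0.14 for DDIT4, 0.13 for MTHFD1L, 0.12 for ALDH18A1 and 0.039 for SLC3A2. With cyclic loess these became 0.034 for ATF5, 0.18 for EIF2AK4, 0.19 for PPP1R15A, 0.16 for DDIT4, 0.0011 for SESN2, 0.19 for MTHFD1L, 0.17 for ALDH18A1 and 0.12 for SLC3A2. The cause was not tested. Depth is known only as an estimate, and genes under about 5 FPKM, such as CHAC1, have wide deposited bounds.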
